A study of Mus musculus with 2 samples.

Results

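The transcripts followed here are those of 10 genes known as targets of the transcription factor p53, out of 32287 measured features. They are *Mdm2*, *Cdkn1a*, *Ccng1*, *Plk2*, *Psrc1*, *Gdf15*, *Eda2r*, *Phlda3*, *Trp53inp1* and *Zmat3*, and each was found by its symbol. They were chosen by the UMI counts of some of them, since *Gdf15*, *Cdkn1a* and *Mdm2* had been seen to lead a cluster of smooth muscle cells (SMCs) in these data. Values of the 10 genes in SMCs are therefore descriptions with no test. Tests are given only for the other cell types and for genes outside the list.

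The cells came from thoracic aortas of GFPiSMC mice, strain C57BL/6J, labelled WT (1 group, n = 2 aortas, 1 droplet library of 3′ chemistry per aorta). These mice carry Myh11-CreERT2, a tamoxifen-inducible Cre driven by the SMC promoter *Myh11*, and the mT/mG reporter, which switches a cell from tdTomato to eGFP after recombination. At the age of 3 weeks both animals were given 5 daily intraperitoneal doses of 1 mg tamoxifen, and they were 12 weeks old when the tissue was taken. The mice were male by the study's methods, and their TGF-β receptors were intact. After a cold enzymatic digestion, live singlets were sorted with no gate on GFP. All cells carry the Cre, the reporter and the tamoxifen exposure, and every comparison is between cell types or between cells of the same 2 aortas.

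In textbook accounts p53 is kept scarce by the ubiquitin ligase *Mdm2* and builds up after DNA damage, oncogene activity or ribosomal stress. It then binds response elements near its target genes, whose products halt the cell cycle, aid repair, alter survival or feed back on p53 itself. Several of these genes have other inducers too, such as growth factor signaling for *Plk2*, cell stress for *Gdf15* and differentiation signals for *Cdkn1a*, so their transcripts alone are not a measure of p53.

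The response element is built from a decamer that occurs as a pair. The promoter table (RefSeq, GRCm38.p6, 250 bases before to 50 bases after a start site) held windows of 8 of the 10 genes, but not of *Trp53inp1* or *Zmat3*. A search of both strands for the p53 consensus decamer found it in 3 of these 8 genes, *Cdkn1a*, *Mdm2* and *Ccng1*. It occurred in 9.55% of all genes tabulated (2582 of 27025) and in 8.36% of all windows (2745 of 32851). A stretch of each of these 3 windows is shown because they are the members' windows in which the decamer was found. Capitals mark the decamer and the strand is that of the gene, at chr17:29090881-29090940 (plus), chr10:117710910-117710969 (minus) and chr11:40755437-40755496 (minus).
Cdkn1a: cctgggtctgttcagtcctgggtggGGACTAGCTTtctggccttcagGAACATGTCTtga
Mdm2: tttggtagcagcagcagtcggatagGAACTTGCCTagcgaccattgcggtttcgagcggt
Ccng1: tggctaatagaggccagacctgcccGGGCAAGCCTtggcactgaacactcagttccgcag
*Cdkn1a* held the decamer 2 times in its first window, starting 73 and 51 bases before the start site. In *Mdm2* it began 186 bases and in *Ccng1* 185 bases before the start. The windows of *Gdf15*, *Phlda3*, *Eda2r*, *Psrc1* and *Plk2* held none. A match is a description of letters, and absence from these windows says nothing of sites elsewhere.

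The files held 8947 and 6263 cells with 47009780 and 30919996 unique molecular identifiers (UMIs, each counted as 1 captured RNA molecule). After filtering, 6543 and 4609 cells remained, with a median of 5671 and 5392 UMIs. Levels are UMIs summed per aorta and cell type and scaled to 1000000 (CPM), and they compare cell types for 1 gene but not genes with each other. Markers gave names to 29 of 30 clusters. Each name, such as SMC or fibroblast, stands for cells like that type, and the study's own naming may not be the same. There were 2361 and 1695 SMCs, 1488 and 1051 fibroblasts, 785 and 726 endothelial, 921 and 574 myeloid, 622 and 365 lymphocyte, 274 and 158 mesothelial and 29 and 14 erythroid cells in aorta 1 and 2. The libraries shared 18 cell barcodes, 10 of them among analysed cells.

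A pair of clusters must be known before the values. The first is an SMC cluster of 479 cells, which had a median of 1502 UMIs, against 7603 and 7429 over all SMCs, and was led by *Chgb*, *Chga*, *Cyb5r3*, *Dlk1*, *Mup3*, *Fabp1*, *Serpina1c*, *Apoa2*, *Des* and *Gdf15*. Of these 10 leading genes only *Des* is an SMC marker, while *Chgb* and *Chga* are neuroendocrine genes and *Mup3*, *Fabp1*, *Serpina1c* and *Apoa2* are known from liver, so another naming of the cluster is possible. Its *Acta2* level was 21584 and 19738 CPM, against 20831 and 20479 CPM in the other SMCs, while the nuclear RNA *Malat1* was lower, at 11424 and 20464 CPM against 36271 and 33034 CPM. *Chgb* had 349 UMIs there in aorta 1 and 0 in aorta 2, and *Mup3* had 0 and 48. The part of these cells in the SMC results was not tested beyond giving values with and without the cluster. The other is a cluster of 78 dividing cells led by *Hist1h2ap*, *Hist1h1b* and *Top2a*. It was placed with lymphocytes by the whole marker list of that class, of which *Cd3g* was detected in 72.7% and 61.8% of its cells.

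Members were tested against fibroblasts in endothelial, myeloid, lymphocyte and mesothelial cells. A gene was called where edgeR's quasi-likelihood p, adjusted by Benjamini-Hochberg over 13998 genes, was under 0.05 and the difference was more than 1 on the log2 scale either way. All 10 members were tested. In endothelial cells 4 of the 10 were called, 1 higher and 3 lower, where 26.1% of all genes were called (11.6% higher and 14.5% lower). In myeloid cells 4 were called, 1 higher and 3 lower, beside 41.1% of all genes (18.9% and 22.3%). In lymphocytes 7 were called, 2 higher and 5 lower, beside 48.0% (20.2% and 27.8%). Mesothelial cells had 3 called, 1 higher and 2 lower, beside 24.5% (10.6% and 13.9%). With 10 genes these counts are of the order of the background, and nothing is read from them about the list as a whole. The median log2 fold change of the members was -0.65 in endothelial cells, -0.54 in myeloid cells, -1.11 in lymphocytes and 0.10 in mesothelial cells, beside -0.02, 0.01, -0.05 and -0.12 over all genes. In sums of this kind, fewer cells with a transcript and less of it per cell cannot be told apart.

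**Figure D1:**
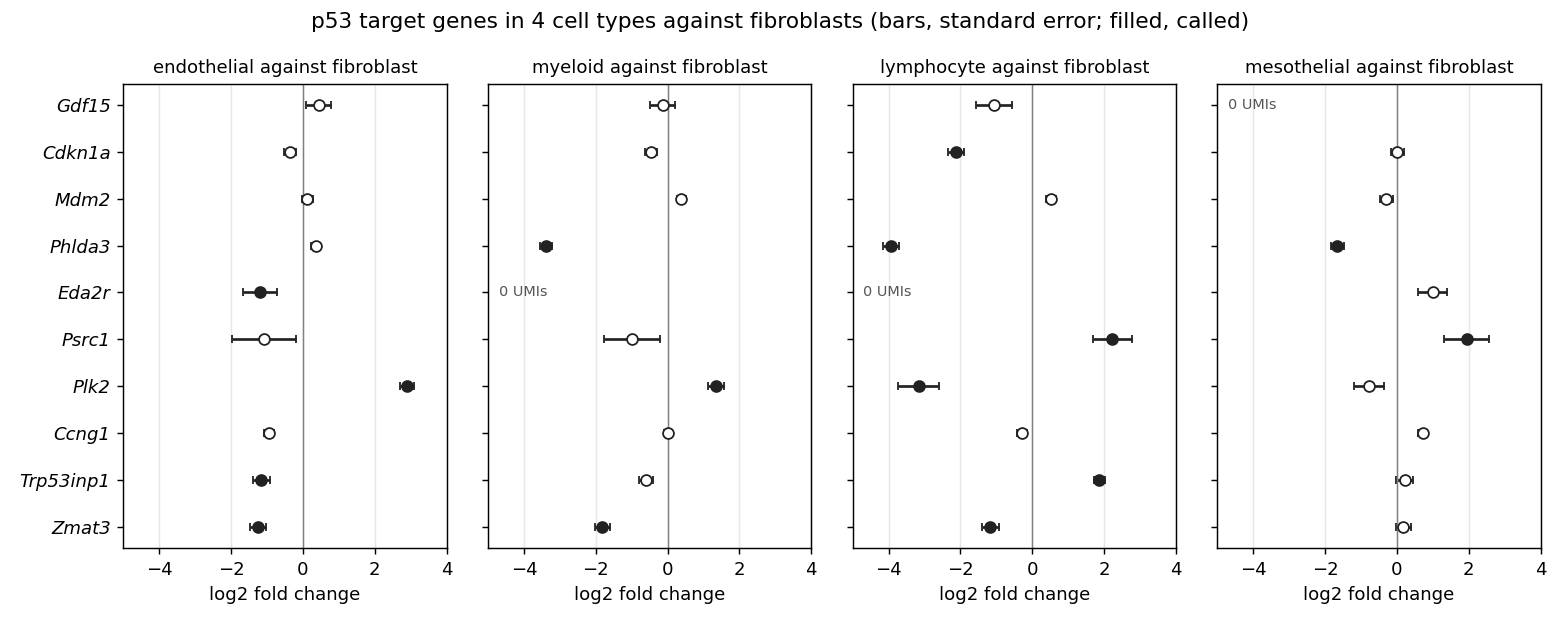
Log2 fold change of the 10 p53 target genes against fibroblasts in 4 cell types (edgeR, n = 2 aortas, bars are the standard error). Filled points passed an adjusted p of 0.05 and an absolute log2 fold change of 1, and genes with no UMI in a type are marked as such. Plk2 in endothelial cells stands at 2.90, and Phlda3 in lymphocytes at -3.94.

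*Mdm2* (chromosome 10, 117688875 to 117710758, minus strand), the ubiquitin ligase through which p53 limits itself, had the most even level across types. It stood at 43.0 and 42.8 CPM in SMCs (mean 42.9 ± 0.10, SD, n = 2) and at 32.8 and 33.9 CPM in fibroblasts. Lymphocytes had 48.1 and 42.7 CPM, endothelial cells 45.0 and 33.5 CPM, myeloid cells 38.9 and 38.8 CPM and mesothelial cells 29.4 and 33.9 CPM. The ranges of lymphocytes, SMCs and endothelial cells overlapped in the order of levels. *Mdm2* was called in no type against fibroblasts, with log2 fold changes from -0.30 in mesothelial cells to 0.53 ± 0.14 (SE) in lymphocytes (adjusted p = 0.00259). Within lymphocytes its level was highest in a cluster of 187 cells led by *Rag1*, a gene of immature lymphocytes, at 114 and 73.9 CPM.

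*Cdkn1a* (chromosome 17, 29090976 to 29100727, plus strand) encodes p21, the inhibitor of cyclin-dependent kinases through which p53 arrests cycling. It was at 157.4 and 157.3 CPM in SMCs, 173.9 and 139.7 CPM in mesothelial cells and 149 and 124 CPM in fibroblasts. The ranges of the SMCs, mesothelial cells and fibroblasts overlapped in turn. Endothelial cells had 116 and 119 CPM, myeloid cells 103 and 70.6 CPM and lymphocytes 21.7 and 42.1 CPM, and these types stood apart from each other. Lymphocytes were lower than fibroblasts by a log2 fold change of -2.12 ± 0.21 (adjusted p = 1.19e-08). Of the 142 lymphocyte UMIs of *Cdkn1a*, 120 came from the dividing cells, where the level was 112 and 177 CPM. In the remaining lymphocytes it was 6.62 and 3.52 CPM, and the log2 fold change without the dividing cells was -4.52. A cluster led by *S100a9* and *S100a8*, neutrophil genes, had no UMI of *Cdkn1a* in either aorta.

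Within the endothelium *Cdkn1a* was uneven. The cluster with *Prox1* and *Flt4*, genes of lymphatic endothelium, had 636 and 303 CPM in 47 and 76 cells. A cluster of 39 and 48 cells led by *Gpihbp1* and *Fabp4*, capillary genes, had 284 and 567 CPM. The large endothelial cluster led by *Cytl1* and *Pecam1* had 51.5 and 56.5 CPM in both aortas. The fourth cluster, 220 and 187 cells led by *Adra2a* and *Stmn2*, had 135 and 122 CPM. The values of all 3 other clusters thus stood above those of the largest, and the aortas differed in opposite directions in the smallest pair.

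*Ccng1* (chromosome 11, 40748552 to 40755311, minus strand), cyclin G1, recruits a phosphatase to *Mdm2*. Mesothelial cells held 82.2 and 101.8 CPM, above fibroblasts at 46.5 and 48.7 CPM. Myeloid cells had 42.8 and 42.7 CPM, SMCs 40.9 and 43.6 CPM, lymphocytes 36.4 and 38.3 CPM and endothelial cells 26.1 and 27.5 CPM. Myeloid cells and SMCs overlapped and the other neighbours were apart. Both ends of this order missed the fold limit, at a log2 fold change of 0.72 ± 0.13 in mesothelial cells (adjusted p = 0.000109) and -0.95 ± 0.14 in endothelial cells (adjusted p = 5.78e-06).

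*Plk2* (chromosome 13, 110395046 to 110400844, plus strand), a polo-like kinase of the stress response, was an endothelial transcript in these aortas. Endothelial cells had 65.1 and 65.8 CPM and held 49.8% of all its UMIs as the mean of both aortas. Myeloid cells followed at 16.1 and 21.1 CPM, then fibroblasts at 5.78 and 10.9 CPM, mesothelial cells at 6.11 and 3.99 CPM and SMCs at 1.84 and 1.74 CPM. Lymphocytes were lowest, at 0.668 and 1.09 CPM. It was called higher in endothelial cells (log2 fold change 2.90 ± 0.20, adjusted p = 4.67e-11) and myeloid cells (1.34 ± 0.23, adjusted p = 1.84e-05), and lower in lymphocytes (-3.16 ± 0.56, adjusted p = 3.38e-05). The description for SMCs against fibroblasts is -2.07 ± 0.27.

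*Psrc1* (chromosome 3, 108383839 to 108388231, plus strand), a microtubule-associated protein of the mitotic spindle, was sparse everywhere. Lymphocytes had 4.68 and 8.75 CPM, mesothelial cells 8.89 and 1.995 CPM, SMCs 2.70 and 2.89 CPM and fibroblasts 1.497 and 1.25 CPM. The order above fibroblasts overlapped between neighbours. It was called higher in lymphocytes (log2 fold change 2.23 ± 0.55, adjusted p = 0.00109) and mesothelial cells (1.95 ± 0.62, adjusted p = 0.0164). In lymphocytes 28 of its 30 UMIs were in the dividing cells, at 30.4 and 36.9 CPM, which left 1 UMI in each aorta elsewhere. The call was lost with a minimum of 5000 UMIs (1.16, adjusted p = 0.242). With doublets kept it turned to -2.16 (adjusted p = 0.0609), as 72 of the 78 dividing cells then took the name erythroid. The mesothelial value rests on 16 and 2 UMIs, was 2.57 without aorta 2, and was not called by DESeq2 (adjusted p = 0.121), with doublets kept, at the 5000 minimum or at a mitochondrial limit of 20%.

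*Gdf15* (chromosome 8, 70629393 to 70632456, minus strand), a secreted ligand that acts on food intake through a brainstem receptor, was detected in few cells. SMCs had 6.88 and 7.60 CPM, from 120 and 92 UMIs, and held 52.7% ± 3.00 (SD) of all its UMIs. Endothelial cells had 5.66 and 11.2 CPM, fibroblasts 5.56 and 5.47 CPM, myeloid cells 4.14 and 4.99 CPM and lymphocytes 1.00 and 4.92 CPM. The range of endothelial cells took in that of SMCs. The low-UMI cluster held 18 and 35 of the SMC UMIs, at 33.0 and 93.4 CPM, and without it SMCs were at 6.04 and 4.86 CPM, which overlaps with fibroblasts.

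Mesothelial cells had no UMI of *Gdf15* in either aorta, so that fibroblasts were at least 5.16-fold higher, counting the mesothelial level at 3 UMIs over both aortas (adjusted p = 0.000568). Lymphocytes, too, had 0 UMIs of *Gdf15* outside the dividing cells, which held all 12. Over all lymphocytes the log2 fold change was -1.05 ± 0.50 (adjusted p = 0.0674), which the aorta as a replicate block turned into a call (adjusted p = 0.0487). Among fibroblasts, a cluster led by *Dio2* and *Mmp3* had 11.9 and 14.9 CPM of *Gdf15*, from 40 and 26 of the 87 fibroblast UMIs of both aortas.

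*Eda2r* (chromosome X, 97333840 to 97377216, minus strand), an ectodysplasin receptor of the tumor necrosis factor receptor family, was a transcript of mesothelial cells and fibroblasts. Mesothelial cells had 15.6 and 10.97 CPM and fibroblasts 5.88 and 6.09 CPM. Endothelial cells had 1.26 and 4.79 CPM and SMCs 1.15 and 0.909 CPM. All neighbours in this order were apart, although the mesothelial log2 fold change of 1.00 ± 0.39 was not called (adjusted p = 0.0539) unless the aorta was a replicate block (adjusted p = 0.0478). Myeloid cells and lymphocytes had no UMI in either aorta. Fibroblasts were thus at least 19.2-fold above myeloid cells (adjusted p = 2.92e-06) and at least 9.59-fold above lymphocytes (adjusted p = 4.59e-05), with the same floor of 3 UMIs. The endothelial difference of -1.19 ± 0.46 was called at an adjusted p = 0.0449 and rests on 4 and 12 UMIs, its size being -0.35 without aorta 1 and -2.23 without aorta 2. DESeq2 did not call it (adjusted p = 0.189), nor did edgeR with doublets kept or at a mitochondrial limit of 20%.

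*Phlda3* (chromosome 1, 135766119 to 135769136, plus strand), which competes with Akt for membrane lipids and so dampens survival signaling, differed in clear steps between types. Endothelial cells had 179.5 and 228 CPM, fibroblasts 142 and 149 CPM and SMCs 65.0 and 71.8 CPM. Mesothelial cells had 61.1 and 39.9 CPM, myeloid cells 13.4 and 10.8 CPM and lymphocytes 6.68 and 12.6 CPM. The first 5 types stood apart from each other. It was called lower in mesothelial cells (log2 fold change -1.66 ± 0.17, adjusted p = 5.61e-08), myeloid cells (-3.38 ± 0.18, adjusted p = 1.02e-13) and lymphocytes (-3.94 ± 0.22, adjusted p = 4.84e-13). Endothelial cells were higher by 0.36 ± 0.13, under the fold limit (adjusted p = 0.0277).

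*Trp53inp1* (chromosome 4, 11156431 to 11174379, plus strand), a nuclear cofactor that promotes p53 phosphorylation and autophagy, was highest in lymphocytes, apart from every other type. Lymphocytes had 81.5 and 94.1 CPM, SMCs 38.1 and 38.6 CPM, mesothelial cells 22.2 and 50.9 CPM and fibroblasts 24.5 and 25.3 CPM. Myeloid cells had 14.4 and 14.7 CPM and endothelial cells 11.004 and 13.6 CPM. It was called higher in lymphocytes (log2 fold change 1.87 ± 0.17, adjusted p = 1.26e-09) and lower in endothelial cells (-1.16 ± 0.23, adjusted p = 0.000236). The *Rag1* cluster of lymphocytes had 400.2 and 339.9 CPM. Neutrophil-like cells led by *S100a9* had 88.4 and 126 CPM, while the myeloid type as a whole stood at -0.61 against fibroblasts.

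*Zmat3* (chromosome 3, 32334792 to 32366014, minus strand), a zinc-finger RNA-binding protein that alters splicing and RNA stability, was highest in mesothelial cells and fibroblasts. Mesothelial cells had 23.3 and 28.9 CPM, fibroblasts 19.7 and 19.4 CPM, SMCs 12.6 and 11.8 CPM and endothelial cells 10.1 and 7.58 CPM. Lymphocytes had 8.35 and 8.21 CPM and myeloid cells 5.63 and 3.88 CPM. It was called lower in endothelial cells (log2 fold change -1.25 ± 0.21, adjusted p = 4.13e-05), myeloid cells (-1.81 ± 0.21, adjusted p = 1.26e-07) and lymphocytes (-1.16 ± 0.23, adjusted p = 0.000123). Without the dividing cells the lymphocyte value was -0.997, under the fold limit. The mesothelial difference was 0.18 ± 0.21 (adjusted p = 0.536). Erythroid cells had 0 to 3 UMIs of any member per aorta and were compared with nothing.

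**Figure D2:**
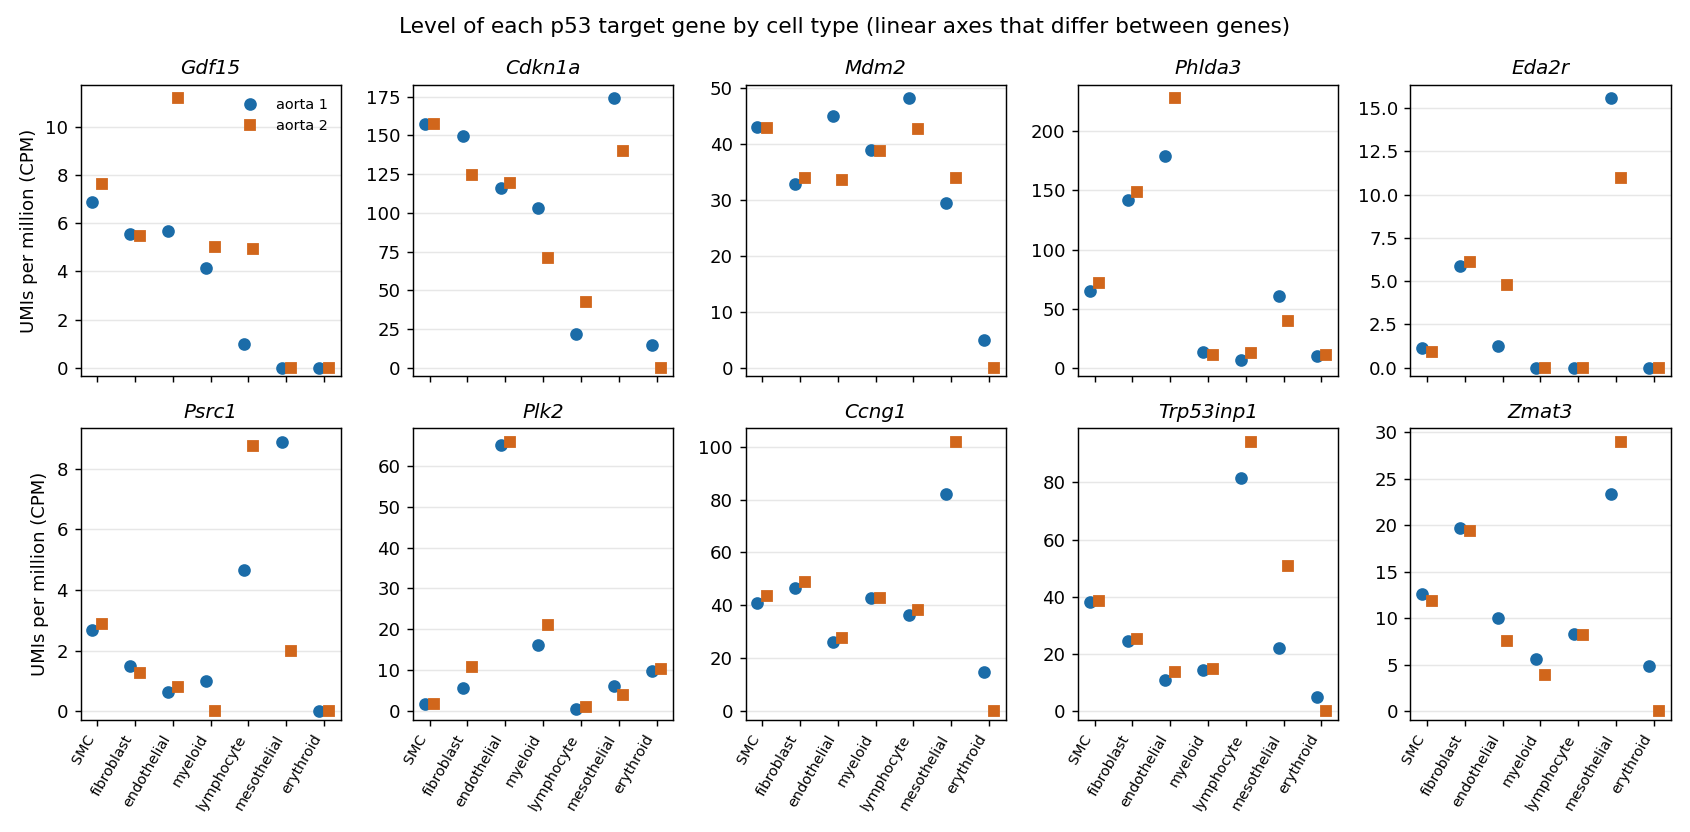
Level of each of the 10 p53 target genes in CPM of summed UMIs by cell type, with aorta 1 as circles and aorta 2 as squares. Plk2 peaks in endothelial cells (65.1 and 65.8 CPM), Trp53inp1 in lymphocytes (81.5 and 94.1 CPM), and Mdm2 is close to level across types.

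Free RNA gives UMIs in cells that do not express a gene, and SMC markers show how much of an SMC transcript appears in another type. Over the marker list of SMCs, the fibroblast level divided by the SMC level lay between 0.0266 and 0.126 in aorta 1. In aorta 2 it lay between 0.0233 and 0.127. The highest ratio in aorta 1 and 2 was 0.081 and 0.0934 in endothelial cells and 0.0286 and 0.0555 in myeloid cells. It was 0.0316 and 0.0697 in lymphocytes and 0.179 and 0.345 in mesothelial cells. These ranges bear only on transcripts whose main source is SMCs. Members with higher levels in other types, such as *Plk2*, *Eda2r* and *Phlda3*, were not held to them. The part of free RNA in the lowest levels was not tested. This includes *Cdkn1a* in lymphocytes other than the dividing cells, at 6.62 and 3.52 CPM. The *Plk2* level of lymphocytes rests on 2 UMIs in each aorta.

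Other known p53 targets stood on both sides of fibroblasts. Of 39 further target genes 37 were tested, and in SMCs 4 were called higher and 6 lower than in fibroblasts, 10 in all, beside 25.9% of all genes (10.2% higher and 15.7% lower). *Perp*, a desmosome protein of p53-dependent death, was higher in SMCs at 61.1 and 50.3 CPM against 10.7 and 6.56 CPM (log2 fold change 2.72 ± 0.17, adjusted p = 3.23e-12). *Tnfrsf10b*, a death receptor, was higher by 2.43 ± 0.31 (adjusted p = 8.76e-07) and the phosphatase gene *Ptp4a3* by 2.32 ± 0.13 (adjusted p = 1.46e-12). The antiproliferative gene *Btg2* was higher by 1.91 ± 0.17 (adjusted p = 1.83e-09). Those lower were the macrophage growth factor *Csf1* (-3.26 ± 0.14), the stem cell factor gene *Kitl* (-2.54 ± 0.15), the iron reductase *Steap3* (-2.32 ± 0.13), *Tm7sf3* (-2.02 ± 0.11), the apoptosome gene *Apaf1* (-1.64 ± 0.17) and the autophagy gene *Dram1* (-1.06 ± 0.17). The median of the 37 genes was -0.04, beside -0.07 over all genes.

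In endothelial cells 6 of the 37 were called higher and 3 lower (26.1% of all genes were called), the latter being *Steap3* (-2.03), *Csf1* (-1.03) and *Gadd45a* (-1.01). Myeloid cells had 7 higher and 5 lower, beside 41.1% of all genes, and the lower ones were *Csf1* (-3.65), *Perp* (-2.91), *Tm7sf3* (-2.18), *Steap3* (-2.01) and the death receptor *Fas* (-1.17). Lymphocytes had 4 higher, namely the BH3-only gene *Pmaip1* (5.28), *Btg2* (2.83), *Ptp4a3* (2.34) and the repair gene *Ddb2* (1.20), and 7 lower, beside 48.0%. Mesothelial cells had 6 higher and 3 lower, beside 24.5%, with *Steap3* at -4.96, *Tm7sf3* at -1.65 and *Apaf1* at -1.14. *Steap3* was thus below fibroblasts in all 5 types. The list medians were 0.17, 0.02, -0.02 and -0.04 in the order given.

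Of 14 genes that act on p53, 12 were tested, where 25.9% of all genes were called in SMCs, 26.1% in endothelial, 41.1% in myeloid, 48.0% in lymphocyte and 24.5% in mesothelial cells. Their median log2 fold changes were -0.06 in SMCs, 0.01 in endothelial, 0.16 in myeloid, 0.68 in lymphocyte and 0.24 in mesothelial cells. *Trp53*, which encodes p53, was at 46.2 and 47.9 CPM in SMCs and 50.5 and 48.9 CPM in fibroblasts (log2 fold change -0.01 ± 0.10, adjusted p = 0.947). In lymphocytes it was called higher, at 128 and 152 CPM (1.55 ± 0.11, adjusted p = 4.63e-11), as was the checkpoint kinase *Chek1* (2.67 ± 0.59, adjusted p = 0.000445). The kinase *Chek2* was called higher in endothelial cells (1.03 ± 0.28, adjusted p = 0.00429) and the acetyltransferase *Ep300* in myeloid cells (1.03 ± 0.11, adjusted p = 4.95e-08). By edgeR 0 of the 12 were called in SMCs and 0 in mesothelial cells, where 4 and 3 had an unadjusted p under 0.05, and DESeq2 called 0 in both. DESeq2 also called 0 in endothelial and in myeloid cells.

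To ask how often members were found together in 1 cell, each cell was thinned at random to 2000 UMIs, and its score was the number of members with at least 1 UMI. Cells under 2000 UMIs were left out, 339 and 240 of them SMCs. In SMCs 60.9% and 62.0% of cells had a score of 0. A score of 4 or more was counted as high, and 19 of 2022 SMCs (0.940%, exact 95% interval 0.567 to 1.46) and 18 of 1455 (1.24%, 0.735 to 1.95) reached it. Just outside the limit, 28 and 31 SMCs scored 3, and just inside it 12 and 13 scored 4. Scores of 5 were reached by 5 and 4 SMCs, and 6 by 2 and 1. Intervals here cover counting error only.

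In mesothelial cells 6 of 237 (2.53%, interval 0.935 to 5.43) and 3 of 140 (2.14%, 0.444 to 6.13) were high-scoring. This was above SMCs, by a gap whose size depended on *Ccng1* and on the limit. Without *Ccng1* the mean share was 0.633% against 0.562% in SMCs, and at a score of 5 or more it was 0.422% against 0.345%, with 0 mesothelial cells in aorta 2. Fibroblasts had 10 of 1415 (0.707%, 0.339 to 1.30) and 8 of 996 (0.803%, 0.347 to 1.58). In endothelial cells it was 3 of 638 and 3 of 541 (0.470% and 0.555%). Of 840 myeloid cells in aorta 1, 1 reached the score (0.119%), and none of 525 did in aorta 2, where 3 cells would be 0.571% and the exact interval reaches 0.700%. Lymphocytes had none of 567 and none of 324, where 3 cells would be 0.529% and 0.926% and the exact intervals reach 0.648% and 1.13%. High-scoring cells were thus seen in SMCs, fibroblasts, endothelial and mesothelial cells of both aortas, and the intervals of these types overlap. At 2000 UMIs the mean score was 0.526 and 0.528 in SMCs, 0.691 and 0.658 in fibroblasts, 0.668 and 0.745 in endothelial cells and 0.582 and 0.614 in mesothelial cells.

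The number of high-scoring cells was set beside the number that the single-gene shares would give if members were detected independently within each cluster. SMCs gave 1.64 and 1.48 expected cells, so that the observed numbers were 11.6 and 12.2 times as many. For mesothelial cells the same ratio was 19.5 and 17.9, from 0.307 and 0.168 expected cells. It was 4.20 and 5.18 in fibroblasts and 3.68 and 2.74 in endothelial cells. The endothelial ratios rest on 3 cells per aorta against 0.815 and 1.10 expected, and the mesothelial ones on 6 and 3 cells. Cells of 1 aorta are not replicates, and no test was made. In SMCs the ratio draws on the values by which the genes were chosen, so it is no independent evidence there.

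**Figure D3:**
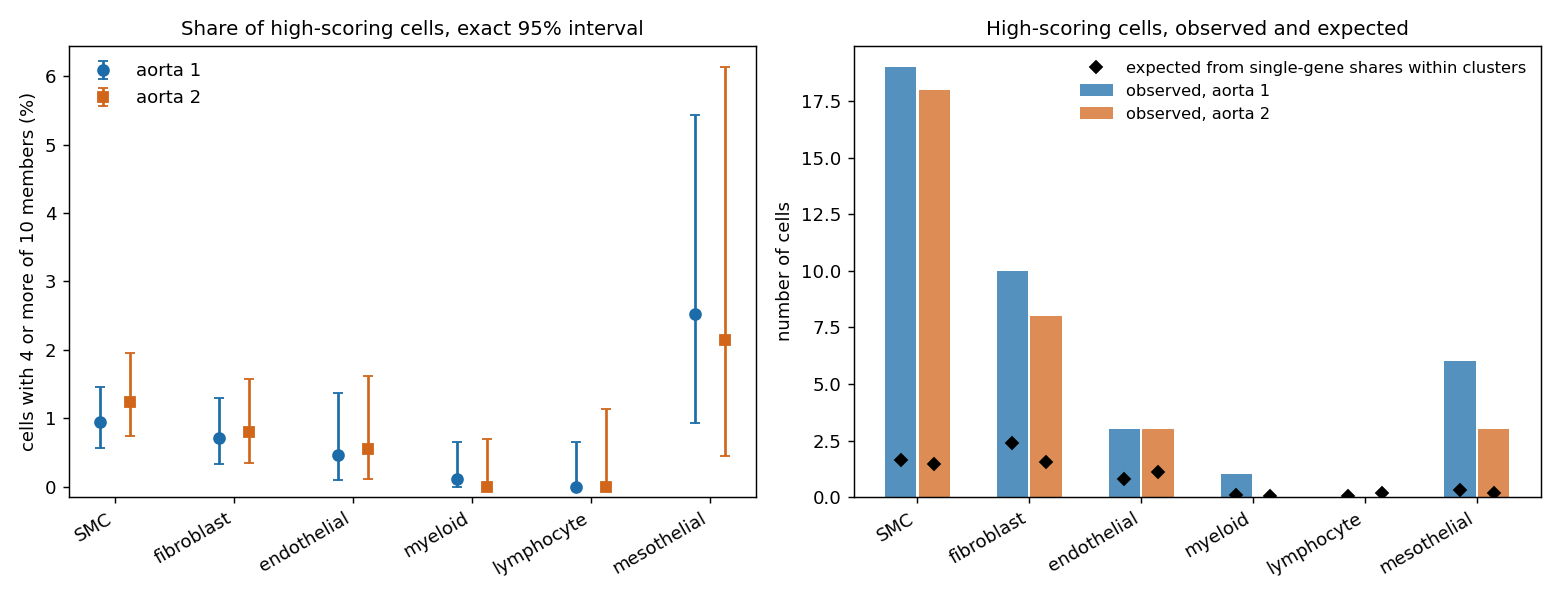
Left, percent of cells with at least 4 of the 10 members detected at 2000 UMIs, by cell type and aorta, with exact 95% intervals. Right, bars give the observed number of such cells and diamonds the number expected from single-gene shares within clusters, with 19 and 18 SMCs against 1.64 and 1.48 expected.

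High-scoring SMCs were spread unevenly over clusters. The low-UMI cluster gave 6 of its 71 scored cells (8.45%) and 5 of 50, out of the 19 and 18 in all, and its members summed to 970 and 1094 CPM. The cluster with *Wnt16*, *Tnnt2* and the heat-shock gene *Hspa1a* among its leading genes gave 7 of 477 (1.47%) and 9 of 331 (2.72%). The cluster led by *Chad* and *Thbs4* gave 3 of 128 (2.34%) and 1 of 65 (1.54%). The largest cluster, led by *Mylk4* and *Postn*, gave 2 of 817 and 3 of 561, and the one led by *Rgs5* and *Lrrtm3* gave 1 of 488 and 0 of 419. Summed members were 482 and 563 CPM in the *Wnt16* cluster and 271 and 275 CPM in the largest. Without the low-UMI cluster, 13 high-scoring SMCs remained in each aorta (0.666% and 0.925%).

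*Cdkn1a* was the member found in nearly all high-scoring SMCs of both aortas. It was found in 17 of the 19 and 18 of the 18 high-scoring SMCs, and *Phlda3* in 18 and 9. *Ccng1* was found in 10 and 15, *Trp53inp1* in 10 and 10 and *Mdm2* in 10 and 9. *Gdf15*, which 0.742% and 1.37% of all scored SMCs had, was found in 4 and 8 of the high-scoring cells. In SMCs scoring 3, *Cdkn1a* was in 21 of 28 and 26 of 31 cells and *Gdf15* in 5 and 5. In high-scoring fibroblasts *Phlda3* was in 10 of 10 and 7 of 8 cells and *Cdkn1a* in 9 and 8. Mesothelial high scores rested on *Cdkn1a* (6 of 6 and 3 of 3), *Phlda3* (5 and 3) and *Ccng1* (4 and 3), with *Gdf15* in none.

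Co-detection was then taken pair by pair. The number of cells with both genes was divided by the number expected from their shares in the same aorta and type, for pairs with at least 1 expected cell in both aortas. In SMCs 19 of 21 pairs were above 1 in both aortas and none below 1 in both, with a median ratio of 1.48 and 1.57. The SMC ratios draw on the values by which the genes were chosen, and pairs share genes, so they are no independent evidence. *Gdf15* and *Cdkn1a* met in 11 SMCs where 2.37 were expected and in 13 where 2.93 were (4.65 and 4.44 times). *Cdkn1a* and *Psrc1* met in 8 and 6 (5.63 and 5.86 times), and *Cdkn1a* and *Phlda3* in 72 and 50 (1.94 and 2.06 times). *Gdf15* and *Phlda3* met in 6 and 11 SMCs, 3.44 and 4.82 times the expected number. *Mdm2* and *Ccng1* met in 18 and 16, 1.75 and 1.91 times the expected. The pairs not above 1 in both were *Mdm2* with *Phlda3*, at 0.965 in aorta 2, and *Trp53inp1* with *Zmat3*, at 0.420 in aorta 2. Without the low-UMI cluster 14 of 18 SMC pairs were above 1 in both, with medians of 1.29 and 1.49.

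Mesothelial cells had 7 of 8 pairs above 1 in both aortas, with medians of 2.14 and 1.87. *Cdkn1a* and *Ccng1* met in 11 and 7 mesothelial cells (2.48 and 1.87 times the expected) and *Cdkn1a* and *Phlda3* in 9 and 4 (2.90 and 2.96 times). Fibroblasts had 13 of 23 pairs above 1 in both and 2 below 1 in both, with medians of 1.23 and 1.49. *Gdf15* and *Phlda3* were the clearest of these, in 7 and 4 fibroblasts (2.56 and 3.48 times), while *Phlda3* and *Ccng1* stayed just below 1 (0.934 and 0.880). In endothelial cells 7 of 16 pairs were above and 3 below 1 in both. There *Plk2* and *Cdkn1a* met in 4 cells against 7.06 expected and in 5 against 6.71 (0.567 and 0.745). *Zmat3* met *Cdkn1a* in no endothelial cell, where 1.11 and 1.22 were expected. Myeloid cells had 2 of 8 pairs above and 2 below 1 in both.

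**Figure D4:**
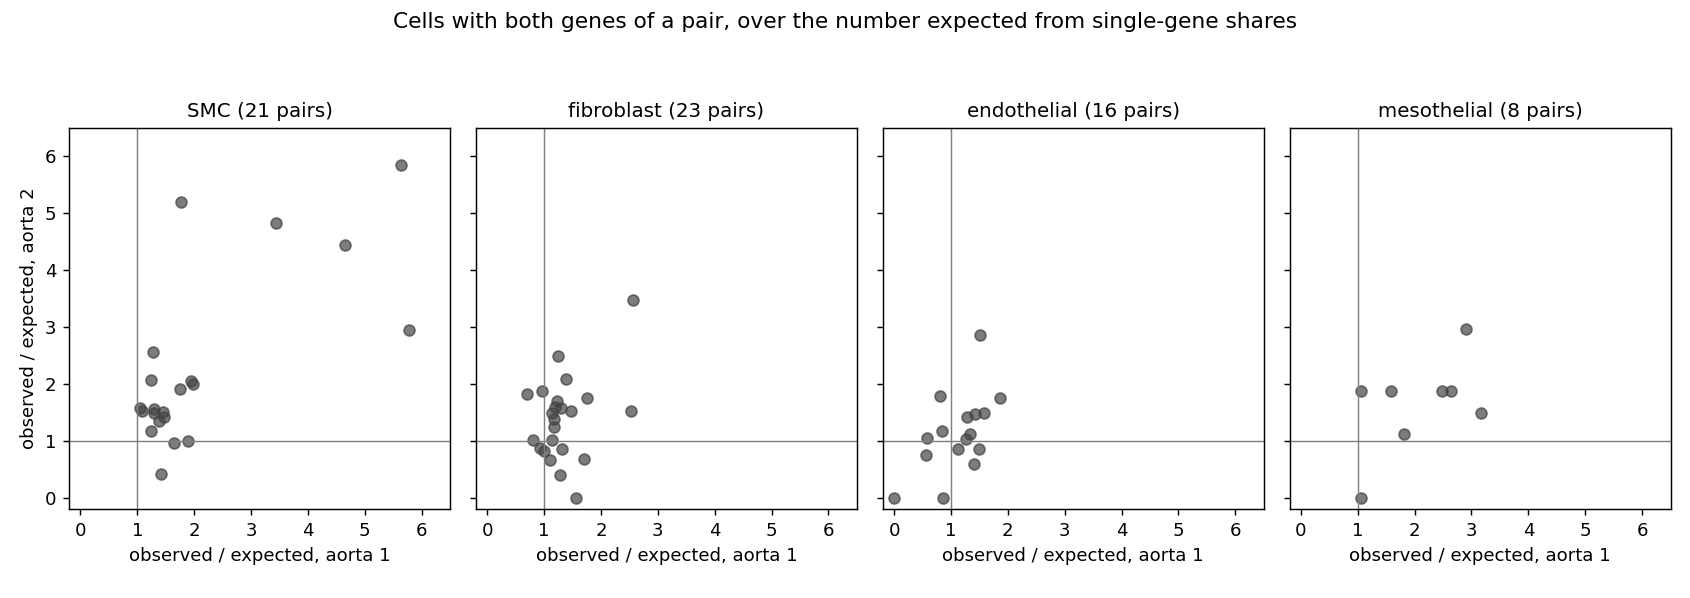
Ratio of observed to expected cells with both genes of a pair, aorta 1 against aorta 2, for 4 cell types, with each point 1 pair and linear axes. Points in the upper right lie above 1 in both aortas, as 19 of 21 SMC pairs and 7 of 8 mesothelial pairs do.

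High-scoring SMCs were SMCs by reporter and markers, and their depth was not higher. The median UMI count was 6766 and 6949 in high-scoring and 8396 and 8072 in the other scored SMCs, and the median mitochondrial share was 4.22% and 2.93% against 4.90% and 5.01%. eGFP was detected in 94.7% and 94.4% of high-scoring and 96.2% and 95.7% of other SMCs. The median summed level of the 8 SMC markers was lower, 23841 and 28464 CPM against 45681 and 43544 CPM. Fibroblast markers were lower as well, 466 and 469 CPM against 1119 and 1106 CPM. The median of every other type's markers was 0 in both sets of SMCs. In high-scoring mesothelial cells, 6 and 3 in number, the median erythroid marker level was 151 and 47.0 CPM against 0 in the others of both aortas, and the endothelial one 462 and 0 CPM against 252 and 138 CPM. The mesothelial markers were at 7734 and 4712 CPM against 8764 and 8321 CPM. The part of these markers in the mesothelial scores was not tested. In high-scoring fibroblasts the fibroblast markers were 27728 and 30834 CPM, against 45578 and 45208 CPM.

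Several other p53 targets, which had no part in the score, had higher levels in the high-scoring SMCs. The members and this list were both chosen with earlier results of these data known, so this is a description and no independent evidence. The summed UMIs of the 19 and 18 cells were compared with those of the 2003 and 1437 others, as ratios of CPM with no test. Of 35 other targets with at least 20 UMIs in the other SMCs of each aorta, 9 were at least 2-fold higher in both aortas, while 4.69% of all 11665 such genes were. The genes behind that share were not matched to the list for level. Without the low-UMI cluster it was 10 of 35, beside 2.96% of all genes. A further 2, *Plk3* and *Polh*, had no UMI in the high-scoring cells, where under 1 UMI was expected, so nothing is read from them or from the 9.34% of all genes that were at least 2-fold lower in both. In all, 20 of the 35 were higher in both aortas, beside 31.8% of all genes. The median ratio of the list was 1.87 and 1.78, beside 1.09 and 1.00 over all genes. The members themselves, which chose the cells, were higher by construction, with *Cdkn1a* at 2093 and 1844 CPM against 142 and 137 CPM.

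The 9 genes have different known roles. The apoptosis effector *Bax* was at 494 and 550 CPM in high-scoring and at 108 and 120 CPM in other SMCs (4.56 and 4.58 times). Its relative *Bbc3*, which encodes Puma, stood at 7.02 and 6.79 times and the nuclease *Aen* at 12.1 and 5.54 times. *Rps27l*, a ribosomal protein paralog, was at 1311 and 1531 CPM against 346 and 329 CPM (3.79 and 4.66 times). *Sesn2*, a brake on growth signaling, had only 4 and 3 UMIs in the high-scoring cells, against 54 and 36 in the far more numerous others. *Ei24* stood at 3.47 and 3.101 times. *Susd6* stood at 3.52 and 3.31 times, the translesion polymerase *Polk* at 4.09 and 2.39 times and *Btg2* at 2.82 and 2.65 times.

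Of 11 regulators of p53, 5 were higher in both aortas, beside 31.8% of all genes, and 0 at least 2-fold higher in both. At 4.69% of all genes, a count of 0 among 11 does not set them apart. *Trp53* itself had ratios of 3.28 and 1.45 and *Mdm4*, the partner of *Mdm2*, 5.00 and 1.86. The list's median was 1.48 and 1.08. The integrated stress response list had a median ratio of 1.83 and 1.92, and 8 of its 10 genes were higher in both aortas, beside 31.8% of all genes. Of the 10, 4 passed, the transcription factors *Ddit3* (5.33 and 2.67) and *Atf4* (2.60 and 2.18), the phosphatase subunit *Ppp1r15a* (2.15 and 2.80) and, from 1 and 2 UMIs, the asparagine synthetase *Asns*. Of 19 immediate early and heat shock genes, which cell dissociation is known to raise, 1 passed, *Egr1* (3.90 and 8.05). In all 6 of the 19 were higher in both, which is near the 31.8% of all genes. Among them were *Junb* (14.4 and 1.30), *Ier2* (3.19 and 1.503) and *Dnajb1* (1.41 and 2.78). *Jun* (0.554 and 0.482) and *Hspb1* (0.611 and 0.517) were lower in both.

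Among cell cycle arrest genes 2 of 8 passed, beside 4.69% of all genes. They were the kinase inhibitors *Cdkn2c* (3.90 and 2.91, from 5 and 4 UMIs) and *Cdkn2b*, from 2 and 4 UMIs. The list's median ratio was 1.36 and 1.37, and 6 of the 8 were higher in both aortas, beside 31.8% of all genes. *Lmnb1*, a lamin gene, and *Cdkn2a*, which encodes p16 and p19Arf, were too sparse in SMCs for their 0 UMIs in these cells to be read. None of 5 proliferation genes with values passed, which at 4.69% of all genes does not set them apart.

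**Figure D5:**
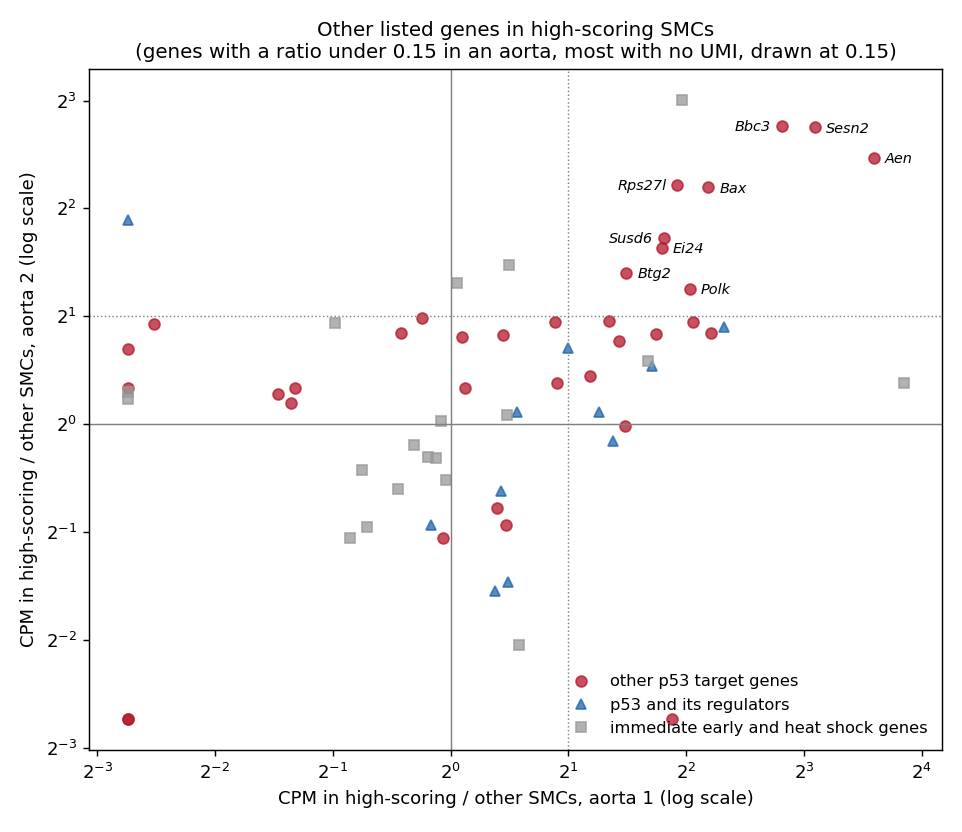
Ratio of CPM in high-scoring over other SMCs, aorta 1 against aorta 2 on log axes, for other p53 targets (red circles), p53 regulators (blue triangles) and immediate early and heat shock genes (grey squares). Dotted lines mark 2-fold, and 9 of 35 other p53 targets lie above it in both aortas.

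Outside all lists, 1010 genes had at least 20 UMIs in the high-scoring SMCs of each aorta. Genes that would miss that minimum at the level of the other SMCs reach it only where they are high. Of the high genes named next, all but *Ftl1* and *Mt1* are of this kind. The upper end is thus largely set by the filter, and nothing is read from it. The 10 with the largest smaller ratio were led by the linker histone *Hist1h1c* (6.17 and 7.26), the epoxide hydrolase *Ephx1* (3.87 and 5.93) and the autophagy receptor *Sqstm1* (4.03 and 3.42). The metallothioneins *Mt2* (3.24 and 5.79) and *Mt1* (2.86 and 3.94), which bind metals, and the ferritin light chain *Ftl1* (4.84 and 2.98) followed, with *Commd3*, *Cd109*, *2410006H16Rik* and the stress factor *Atf5* (3.60 and 2.83). At the low end the rule gave 5 genes with no UMI in the high-scoring cells where under 2 were expected, which carries no information. With at least 20 expected UMIs, a limit set after seeing the values, the lowest were *Lrrc17* (0.207 and 0.322), *Ccn3* (0.213 and 0.325), the creatine kinase *Ckb* (0.239 and 0.343), the matrix gene *Smoc1* (0.221 and 0.347) and the laminin chain *Lamc3* (7 and 1 UMIs where 20.1 and 23.7 were expected).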

How the data were processed

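Single-cell RNA sequencing was performed on 2 thoracic aortas, with 1 library each. The authors deposited unnormalized UMI counts for each gene in each called cell, made per the file headers with Cell Ranger 4.0.0, on mm10 with eGFP and tdTomato added (Seurat 4.0 is named in the submitters' processing notes). The sources used here do not say whether the counting used strand. Members and gene lists were chosen with earlier results of these data known.

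The filter was a mitochondrial share under 10% (13 genes), over 200 genes and 1000 to 25000 UMIs, and kept 6744 and 4698 cells, where the labels give 6278 and 4300 after the study's filter. Scrublet removed 201 and 89 doublets. Both aortas were clustered together (Python 3.11.15, scanpy 1.11.5, leidenalg 0.10.2, scipy 1.17.1, counts scaled to 10000 per cell, 2000 variable genes, 30 components, 15 neighbours, resolution 1) without the 122 listed genes. To be named, a cluster needed at least 3 markers of a class detected in 25% of its cells. The name was withheld from a cluster of low median UMIs (limit 33.3%) with no marker of that class among its 10 leading genes. It was also withheld where 2 leading genes marked another class. The cluster of 89 cells left without a name had myeloid as its best class. The low-UMI SMC cluster kept its name through *Des*. UMIs were summed per aorta and type and fitted in edgeR 4.0.16 (R 4.3.3) with TMM, filterByExpr, the quasi-likelihood test and cell type as the only term, with Benjamini-Hochberg adjustment over all genes. DESeq2 1.42.0 and other settings were alternatives. Scripts were tested on simulated data. No source says more of the replicates than that each is an individual aorta, and with 2 of them p-values measure only their spread.

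Types share the animal, so the aorta number pairs the sums. Correlations of the aorta difference between types were -0.0527 to 0.103 (median 0.0352, 21 pairs). Gene positions are those of the GENCODE annotation of GRCm38, in which no other gene overlaps a member. Named genes were all members, from each list up to 6 genes by the summed CPM difference between high-scoring and other SMCs plus any that a count of 5 or fewer rests on, and the 10 highest and 5 lowest ratios outside the lists. Leading genes of clusters and the single clusters described were picked after their values were seen.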

Additional observations from a re-analysis of the deposited data

Results flagged for a closer look

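UMIs of the 10 p53 target genes were also present in cells that the filter removed, and they are listed here because no comparison uses those cells. Cells with at least 1000 UMIs and a mitochondrial share of 10% or more, 788 and 525 of them, held 438 member UMIs in aorta 1 and 326 in aorta 2, a level of 258 and 289 CPM. Cells under 1000 UMIs, 1319 and 949 of them, held 226 and 186 member UMIs, 234 and 277 CPM. Analysed cells stood at 361 and 370.3 CPM, and Cdkn1a made up most of the gap, at 71.2 and 81.4 CPM in the cells of high mitochondrial share against 134.5 and 126 CPM in analysed cells.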

How the results depend on the processing

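The share of high-scoring cells followed the settings of the score. In SMCs the mean of 1.09% became 2.85% with 3 members and 0.345% with 5, 0.334% at 1000 UMIs, 1.79% at 3000 UMIs, 7.19% with no thinning, 0.562% without Ccng1, 0.874% with doublets kept and 0.796% without the low-UMI cluster. In fibroblasts 0.755% became 3.12%, 0.106%, 0.210%, 1.61% and 6.95% under the first 5 of these, 0.549% without Ccng1, 0.569% without Gdf15 and 0.572% at a mitochondrial limit of 20%. In mesothelial cells 2.34% became 3.75%, 0.422%, 0.547%, 3.93% and 7.31%, then 0.633% without Ccng1, 2.91% with another random draw, 1.55% with a minimum of 5000 UMIs and 2.68% at the 20% limit. Leaving out 1 aorta gave 0.940% to 1.24% in SMCs, 0.707% to 0.803% in fibroblasts and 2.14% to 2.53% in mesothelial cells. The median co-detection ratio of SMC pairs (1.52) was 1.80 with no thinning, 1.68 with doublets kept, 1.61 with expected numbers within clusters and 1.39 without the low-UMI cluster, and 1.48 to 1.57 with 1 aorta. Other p53 targets at least 2-fold higher in high-scoring SMCs numbered 9 of 35 (4.69% of all genes), 16 with 5 members (4.97% of all genes), and 9 to 17 with 1 aorta, where 17 is the count without aorta 2 and the shares of all genes were 13.9% and 16.9%.

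Counts of members called stayed within 1.5 times of the reported ones, and with the aorta as a replicate block they were 4 in endothelial, 4 in myeloid, 8 in lymphocyte and 4 in mesothelial cells. Those of other p53 targets were 10 in SMCs and 9, 12, 11 and 9 in the same order, and the block changed 2 member calls, adding Gdf15 in lymphocytes (adjusted p = 0.0487) and Eda2r in mesothelial cells (adjusted p = 0.0478). Of 329 comparisons of a member's fold change with an alternative, 291 kept direction and call, 9 lost the call, 17 gained it and 12 turned. Psrc1 in lymphocytes turned to -2.16 with doublets kept. The others that turned lay near 0. Ccng1 in myeloid cells was -0.27 with RLE size factors and with DESeq2, -0.0153 without the low-count filter, -0.11 with doublets kept, -0.0975 at 5000 UMIs and -0.00176 at the 20% limit. Cdkn1a in mesothelial cells was -0.0407 without the filter, -0.11 with doublets kept, -0.0927 at 5000 UMIs, -0.0639 at the 20% limit and -0.000438 with listed genes in the clustering. The cause of these changes was not tested beyond the naming of the dividing cells.

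RLE scaling shifted the median of all genes by -0.22 in SMCs and -0.27 in myeloid cells, and DESeq2 took the share of calls that were higher from 39.3% to 28.5% in SMCs and from 45.9% to 35.7% in myeloid cells. The alternatives without the low-UMI cluster, without the dividing cells and with expected numbers within clusters were chosen after seeing the data. With 1 sum per type no edgeR count without an aorta was possible. A thinned depth of 2000 UMIs limits detection of sparse members such as Gdf15, Eda2r and Psrc1, and a score of 0 is no sign that a cell lacks them.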
